A study of Papio anubis and Macaca fascicularis and Castor canadensis with 48 samples.

Results

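The genes described here are markers of the 2 principal neurons of the cerebellar cortex, the Purkinje cell and the granule cell. They were listed by name: Pcp2 (ENSMUSG00000004630), Calb1 (ENSMUSG00000028222), Car8 (ENSMUSG00000041261), Itpr1 (ENSMUSG00000030102) and Pvalb (ENSMUSG00000005716) for Purkinje cells, and Cbln1 (ENSMUSG00000031654) and Cbln3 (ENSMUSG00000040380) for granule cells. Of these 7 genes, 6 have a row among the 16816 rows of the deposited count table. Itpr1 has no row in the table used here and was not analysed here.

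Purkinje cells are the sole output neurons of the cerebellar cortex and fire at high rates, with calcium signals that are shaped by abundant calcium-binding proteins and by release from internal stores through the receptor for inositol trisphosphate (IP3). Granule cells, the most numerous neurons of the brain, send parallel fibres onto Purkinje cell dendrites, and the cerebellins they secrete hold that synapse together in mice. Calb1 and Pvalb are also known outside the nervous system, in the distal tubule of the kidney.

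The series measured gene expression across mammals by bulk RNA sequencing, and its title names longevity as its subject. It holds 48 libraries of 8 species in 15 groups of species and organ, all from wild-type adult males that the labels call young adults. The long-tailed macaque (Macaca fascicularis) gave 6 cerebella, 5 kidneys and 6 livers, and the baboon (Papio anubis) gave 6 brains, 6 kidneys and 6 livers. The beaver gave 2 brains and 2 livers, the chipmunk and the sugar glider 2 livers each, the white-footed mouse 1 brain and 1 liver, the bear 1 kidney and 1 liver, and the tube-nosed bat 1 liver. The 39 libraries of baboon, beaver and macaque came from a primate research center and the other 9 from an earlier collection. The cerebellum was taken in the macaque only, and the labels do not say which region the libraries labelled brain came from. Species and tissue therefore cannot be told apart where macaque cerebellum is set against baboon brain. The labels number the replicates without saying that each is a separate animal, so the p-values measure the spread between these libraries, which may be partly technical.

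Total counts ran from 6326129 to 26801829 per library. Levels are given as CPM, counts scaled to the total count of the library, a unit that is not corrected for gene length and so is compared within a gene and not between genes. In bulk tissue, fewer cells of a type and less RNA per cell cannot be told apart. The rows are mouse gene IDs for all 8 species, so species may differ in a row through their gene models or the mapping of their reads as well as through expression. Folds against liver depend on the scaling: the TMM factors, which correct a library's size for its composition, averaged 1.49 in macaque cerebellum, 1.29 in macaque kidney and 0.545 in macaque liver. The baboon factors averaged 1.40 in brain, 1.38 in kidney and 0.517 in liver.

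In the macaque cerebellum the 6 measured genes stood between 197 and 621 CPM in every library, and 5 of the 6 had their highest mean CPM there among the 15 groups. The exception was Calb1, which was higher in macaque kidney. With TMM scaling over all 48 libraries 4 of the 6 kept that place, since Pvalb then stood at 530 scaled CPM in the 1 white-footed mouse brain, against 238 in macaque cerebellum. That mouse library had the lowest total count of the series and a factor of 0.584 in this scaling. The other brain and cerebellum libraries had factors of 1.42 to 1.64, so its place depends on the scaling of 1 library. The 6 genes together took 0.206% to 0.241% of all counts in the cerebella, against 0.00524% to 0.0152% in baboon brains.

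**Figure D1:**
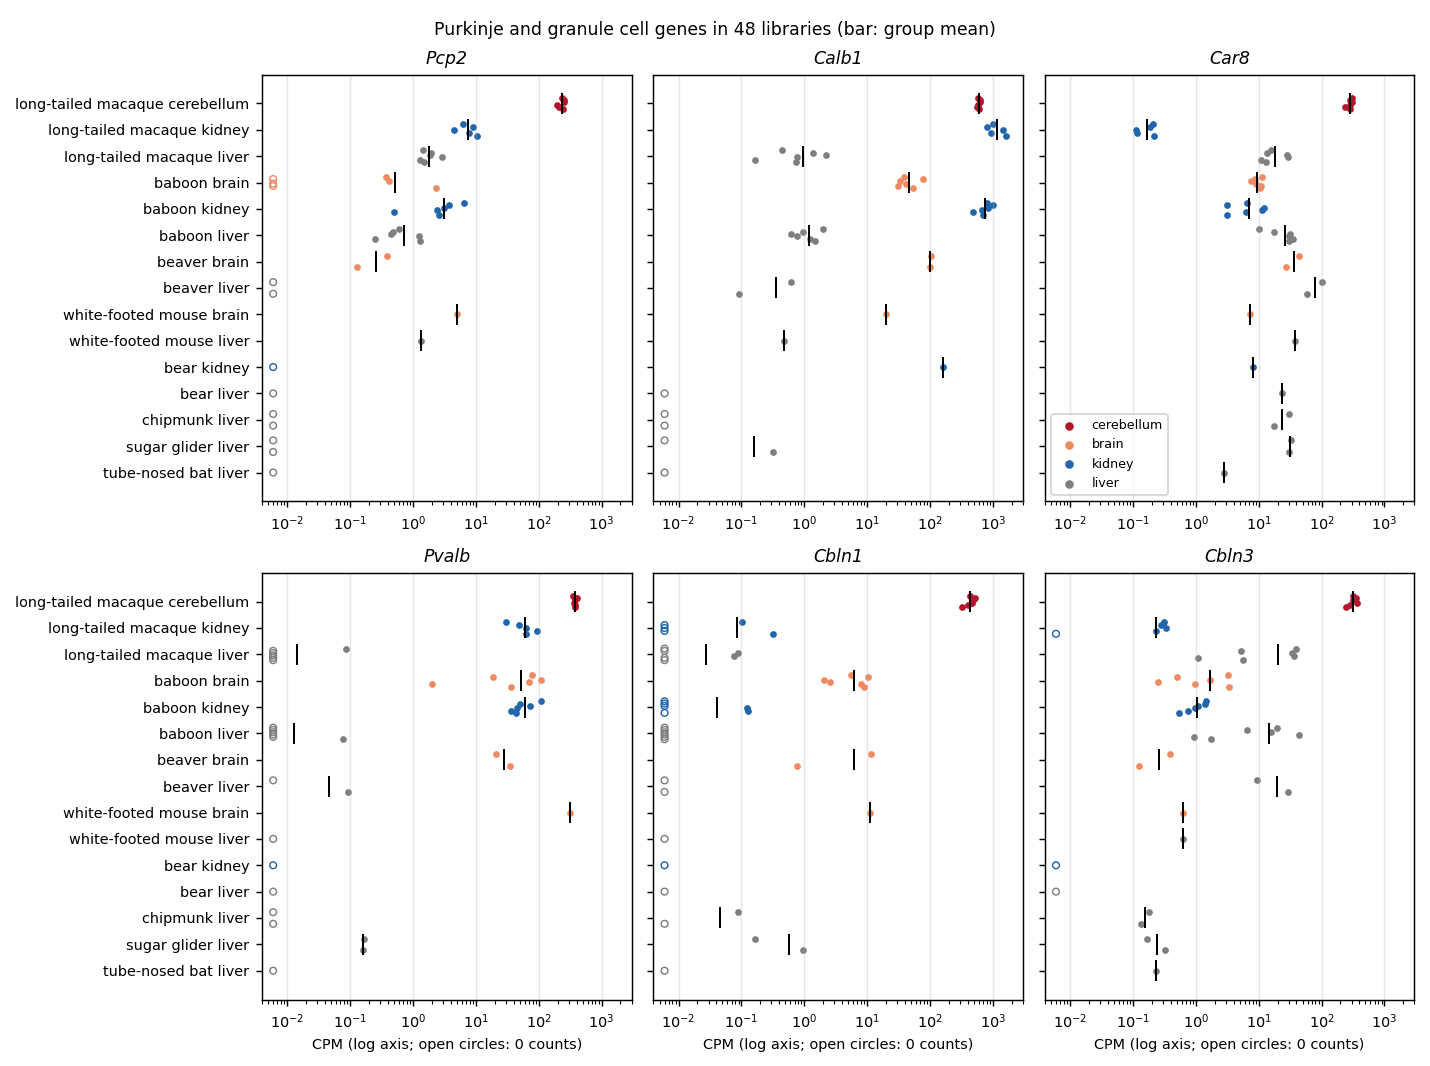
CPM of each of the 6 measured genes in every library (points, log axis), by species and organ, with the group mean as a black bar and libraries without a count as open circles at the left edge. The macaque cerebellum points stand at the right of every panel, at 197 to 621 CPM over the 6 genes, while in the Calb1 panel the kidney points of macaque, baboon and bear also stand at the right.

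Among the Purkinje cell genes, Pcp2, a modulator of inhibitory G proteins that in mice is largely restricted to Purkinje cells and retinal bipolar cells, had 197, 239.96 and 251 CPM as its lowest, median and highest cerebellar values. Macaque kidneys had 10.6, 7.92, 4.46, 8.94 and 6.16 CPM, and macaque livers had 1.31, 1.67 and 2.93 CPM as lowest, median and highest. The cerebellar libraries lay above all kidney and liver libraries with no overlap. The fold was 4.71 on the log2 scale (SE 0.24, edgeR quasi-likelihood test, adjusted p = 4.26e-12) over kidney and 5.53 (SE 0.23, edgeR adjusted p = 2.09e-13) over liver.

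Calb1 encodes calbindin, a calcium buffer that fills Purkinje cells. It had 548, 596 and 621 CPM as the lowest, median and highest values in macaque cerebella, against 0.164, 0.759 and 2.20 CPM in macaque livers, a fitted log2 change of 7.85 (SE 0.42, edgeR adjusted p = 5.59e-12). Macaque kidneys held 1604, 923, 1443, 814 and 1007 CPM, all above every cerebellum. Calb1 was therefore lower in cerebellum than in kidney, with a fitted log2 change of -1.18 (SE 0.31, edgeR adjusted p = 0.00245), and it was the sole measured member with that direction.

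Car8 encodes a carbonic anhydrase-related protein without enzyme activity that binds the IP3 receptor type encoded by Itpr1. Its macaque cerebellar values were 238, 286 and 302 CPM as lowest, median and highest. Macaque kidneys had 0.215, 0.115, 0.112, 0.190 and 0.207 CPM, from 16 counts in all, and macaque livers had 10.9, 14.5 and 28.9 CPM as lowest, median and highest. The organs did not overlap, and liver, not kidney, was the nearer to cerebellum. Cerebellum exceeded kidney by 10.44 on the log2 scale (SE 0.40, edgeR adjusted p = 1.32e-13) and liver by 2.48 (SE 0.23, edgeR adjusted p = 1.31e-08).

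Pvalb encodes parvalbumin, a fast calcium buffer of Purkinje cells, of interneurons of the cerebellar molecular layer and of fast-spiking interneurons elsewhere in the brain. Its lowest, median and highest values were 355, 374 and 404 CPM in macaque cerebella, against 62.9, 94.1, 63.3, 48.1 and 29.9 CPM in macaque kidneys. These organs did not overlap, with a fitted log2 change of 2.43 (SE 0.25, edgeR adjusted p = 7.37e-08). In macaque livers 1 of 6 libraries had any count. With 2 counts in those 6 livers, cerebellum stood 10988-fold over liver on TMM-scaled CPM, with a 95% counting interval of 1972 to 434022, and edgeR gave an adjusted p of 2.52e-14.

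Of the granule cell genes, Cbln1, the secreted organiser of the parallel fibre synapse, had 326, 444 and 509.8 CPM as lowest, median and highest values in macaque cerebella. Kidneys of the macaque had 0.322 and 0.104 CPM in 2 libraries and no count in the other 3, and livers had 0.0772 and 0.0880 CPM in 2 libraries and no count in the other 4. The log2 fold change over kidney was 11.99 (SE 0.46, edgeR adjusted p = 1.53e-13), and 13.42 without macaque kidney 1, which holds 6 of the 8 kidney counts. Over liver, with 4 counts in 6 libraries, the ratio on TMM-scaled CPM was 6342 (counting interval 1756 to 52368, edgeR adjusted p = 4.31e-14).

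Cbln3 is secreted only together with Cbln1 in mouse granule cells. Its lowest, median and highest values were 241, 314 and 373 CPM in macaque cerebella, against 0, 0.229, 0.335, 0.285 and 0.310 CPM in macaque kidneys and 1.07, 19.8 and 39.0 CPM in macaque livers. Cerebellum lay above both organs with no overlap. The log2 fold change was 10.14 (SE 1.00, edgeR adjusted p = 4.48e-08) over kidney and 2.45 (SE 0.59, edgeR adjusted p = 0.000984) over liver. In the baboon RefSeq annotation (Panubis1.0), 100% of the CBLN3 span lies within that of KHNYN, and PCP2 overlaps a neighbouring locus by 11 bases, while the other 4 genes overlap none. The sources used here do not state whether strand was used in counting, so reads of Cbln3 and of a gene that overlaps it cannot be told apart.

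Of the 6 genes, 6 were thus called higher in macaque cerebellum than in liver, a comparison in which 42.1% of the 13927 genes tested were called higher, 39.8% lower and 81.9% in either direction. Against kidney 5 were called higher, beside 37.9% of all genes, and 1 lower, beside 37.8%, out of 75.8% called in either direction. The members' median log2 fold change was 6.69 over liver and 7.43 over kidney, while the median over all genes was 0.06 and 0.02. The median absolute log2 fold change of all genes was 1.35 over liver and 1.04 over kidney.

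Calb1 and Pvalb varied less between cerebella than most genes did. The coefficient of variation (SD over mean) was 4.65% for Calb1 and 4.35% for Pvalb, at the 6.03rd and the 4.76th percentile of the 10734 genes with at least 5 CPM in that group, whose median was 11.2%. Those genes were not matched for level, and Calb1 and Pvalb averaged 593 and 376 CPM. Counting error weighs more on genes with low counts, and its part in these percentiles was not tested. Cbln1 and Cbln3, at 15.1% and 14.9%, were more variable than that median. The count of Cbln3 per count of Cbln1 stayed between 0.661 and 0.809 in the 6 cerebella, against 0.0494 to 0.800 in the 6 baboon brains. These ratios rest on 3935 to 6466 Cbln3 counts per cerebellum and on 4 to 52 per baboon brain, so counting error widens the baboon range. Over the 6 cerebella log2(CPM + 1) of Cbln1 and Cbln3 had a Pearson r of 0.903 (exact permutation p = 0.025) and a Spearman rho of 0.829 (exact permutation p = 0.0583). Without the 2 libraries farthest from the Cbln1 median r was 0.680. None of the 30 pairs of members examined in cerebellum and baboon brain passed the Benjamini-Hochberg adjustment. The smallest adjusted p of Pearson's r was 0.5 by exact permutation, and 1 of 15 pairs in each tissue had an unadjusted p under 0.05. With 6 libraries the exact p cannot fall low enough for a single pair to pass among 30. The adjustment therefore cannot decide whether any 1 pair varied together.

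**Figure D2:**
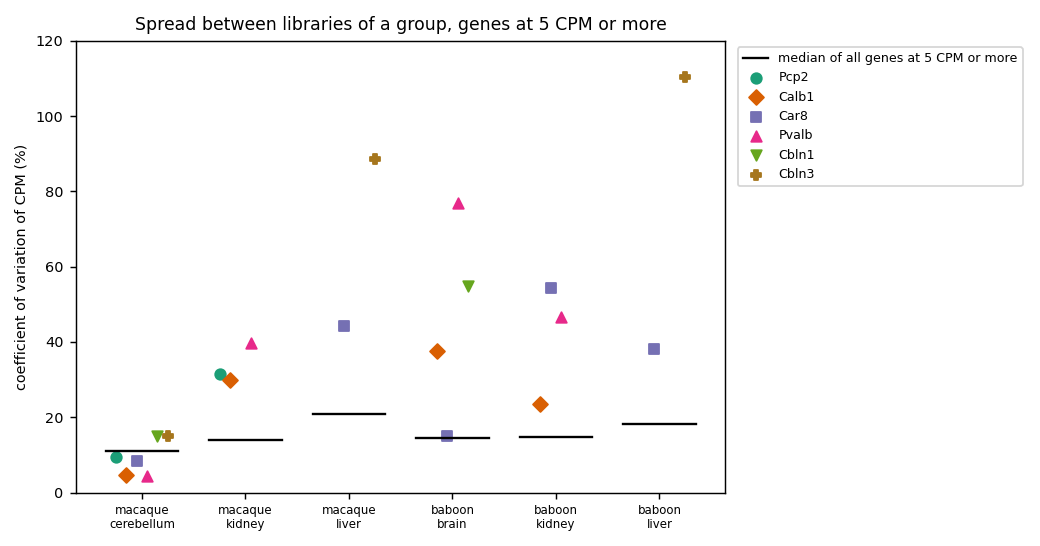
Coefficient of variation of CPM between the libraries of each macaque and baboon group (y axis, percent), for each measured gene with a group mean of at least 5 CPM (symbols) and as the median of all such genes (black bars). In macaque cerebellum all symbols lie below 16%, whereas Pvalb and Cbln1 in baboon brain reach 76.8% and 54.8%, and Cbln3 in macaque and baboon liver reaches 88.6% and 110%.

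In baboon brain the same genes were low or uneven. Pcp2 was at 2.35, 0.419 and 0.374 CPM in 3 brains and had no count in the other 3, against 0.506, 2.88 and 6.40 CPM as lowest, median and highest in baboon kidneys and 0.249, 0.539 and 1.29 CPM in baboon livers. The brain libraries overlapped both organs. Pcp2 was called lower than in kidney, with a fitted log2 change of -2.61 (SE 0.84, edgeR adjusted p = 0.00917). The log2 fold change against liver was -1.93 (SE 0.86, edgeR adjusted p = 0.0459). Without brain 1, which holds 36 of the 48 counts, these changes were -4.29 against kidney and -3.61 against liver. The call against liver was lost with DESeq2's size factors, without the filter on low counts and without any of 8 of the 12 brain and liver libraries (adjusted p up to 0.1005).

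Calb1 ranged over 30.8, 40.1 and 76.7 CPM (lowest, median and highest) in baboon brains, 477, 742 and 983 CPM in baboon kidneys and 0.606, 1.11 and 1.98 CPM in baboon livers. No 2 of the 3 organs overlapped. Brain was below kidney, with a fitted log2 change of -4.03 (SE 0.28, edgeR adjusted p = 1.52e-10), and above liver, with one of 3.85 (SE 0.29, edgeR adjusted p = 5.01e-10).

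Car8 was the most even of the members in baboon brain, at 7.53, 9.70 and 11.2 CPM as lowest, median and highest. It was lower there than in baboon livers, which had 10.04, 30.7 and 35.1 CPM (log2 fold change -2.89, SE 0.34, edgeR adjusted p = 2.83e-07). Against baboon kidneys, at 3.10, 6.40 and 12.03 CPM, the log2 fold change was 0.44 (SE 0.33) and did not pass the test (edgeR adjusted p = 0.232).

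Pvalb was uneven across the baboon brains. The libraries numbered 1 to 6 in the labels had 35.7, 1.98, 69.2, 107, 18.6 and 79.3 CPM, a 54.2-fold range. Its coefficient of variation of 76.8% was at the 99.3rd percentile of the 10982 genes with at least 5 CPM, whose median was 14.6%. The baboon brains overlapped the baboon kidneys, at 36.6, 47.6 and 110.6 CPM, with a fitted log2 change of -0.21 (SE 0.54, edgeR adjusted p = 0.727). Pvalb was called higher than in baboon livers, which had 2 counts in 6 libraries (ratio on TMM-scaled CPM 1575, counting interval 283 to 62196, edgeR adjusted p = 8.20e-08).

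Cbln1 had 8.87, 7.92, 2.52, 2.09, 10.3 and 5.49 CPM in the same 6 baboon brains, all above every baboon kidney and liver. It was 168.5-fold over kidney on TMM-scaled CPM (counting interval 46.7 to 1392, edgeR adjusted p = 8.49e-07). It had no count in the 6 baboon livers, so brain was at least 64.1-fold higher, taking 3 read pairs over the group as the floor (edgeR adjusted p = 9.08e-07). Brain 4 had the most Pvalb and the least Cbln1. Over the 6 brains their log2(CPM + 1) had a Pearson r of -0.645, with an exact permutation p of 0.111.

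Cbln3 had 3.39, 0.990, 0.252, 1.67, 0.507 and 3.24 CPM in baboon brains, against 0.535, 1.04 and 1.48 CPM as lowest, median and highest in baboon kidneys and 0.955, 11.1 and 44.6 CPM in baboon livers. The organs overlapped. Cbln3 was called lower than in liver (log2 fold change -4.61, SE 0.80, edgeR adjusted p = 3.13e-05; -3.78 without liver 3, the highest) and did not pass the test against kidney (log2 fold change 0.65, SE 0.81, edgeR adjusted p = 0.472).

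Of the 6 genes, 3 were called higher in baboon brain than in liver and 3 lower, beside 42.4% of all 13890 genes called higher, 40% called lower and 82.4% called in either direction. Against baboon kidney 1 was called higher and 2 lower, beside 38.2% and 39.1% of all genes, or 77.3% in either direction. The members' median log2 fold change was 0.96 over liver and 0.12 over kidney, against medians of 0.05 and -0.02 over all genes.

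Macaque cerebellum exceeded baboon brain for 6 of the 6 genes, with no overlap, beside 33.3% of the 13213 genes tested called higher, 32.6% called lower and 65.9% called in either direction. Pcp2 showed the largest difference, at a mean of 231 ± 21.9 CPM in macaque cerebellum against 0.524 ± 0.915 CPM in baboon brain (SD, n = 6 each), a fitted log2 change of 8.73 (SE 0.52, edgeR adjusted p = 6.25e-09). Baboon brain 1 holds 36 of the 48 Pcp2 counts of its group, and without it the change was 10.42. Cbln3 followed at 312 ± 46.7 CPM in cerebellum and 1.68 ± 1.36 CPM in baboon brain, a fitted log2 change of 7.48 (SE 0.39, edgeR adjusted p = 1.81e-09). Cbln1, at 433 ± 65.2 CPM in cerebellum against 6.20 ± 3.39 CPM in baboon brain, had a fitted log2 change of 6.06 (SE 0.34, edgeR adjusted p = 3.02e-09), and Car8, at 283 ± 23.4 CPM against 9.59 ± 1.44 CPM, one of 4.82 (SE 0.10, edgeR adjusted p = 4.74e-13).

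The log2 differences of the calcium buffers were the smallest of the 6. Calb1 averaged 593 ± 27.5 CPM in macaque cerebellum and 45.7 ± 17.1 CPM in baboon brain, a fitted log2 change of 3.63 (SE 0.20, edgeR adjusted p = 3.07e-09). Pvalb averaged 376 ± 16.3 CPM in macaque cerebellum and 52.0 ± 40.0 CPM in baboon brain, a fitted log2 change of 2.78 (SE 0.58, edgeR adjusted p = 0.000735). Forebrain marker lists could not be read from the table, because its IDs are not paired with names, so the region of the baboon brains was not examined.

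**Figure D3:**
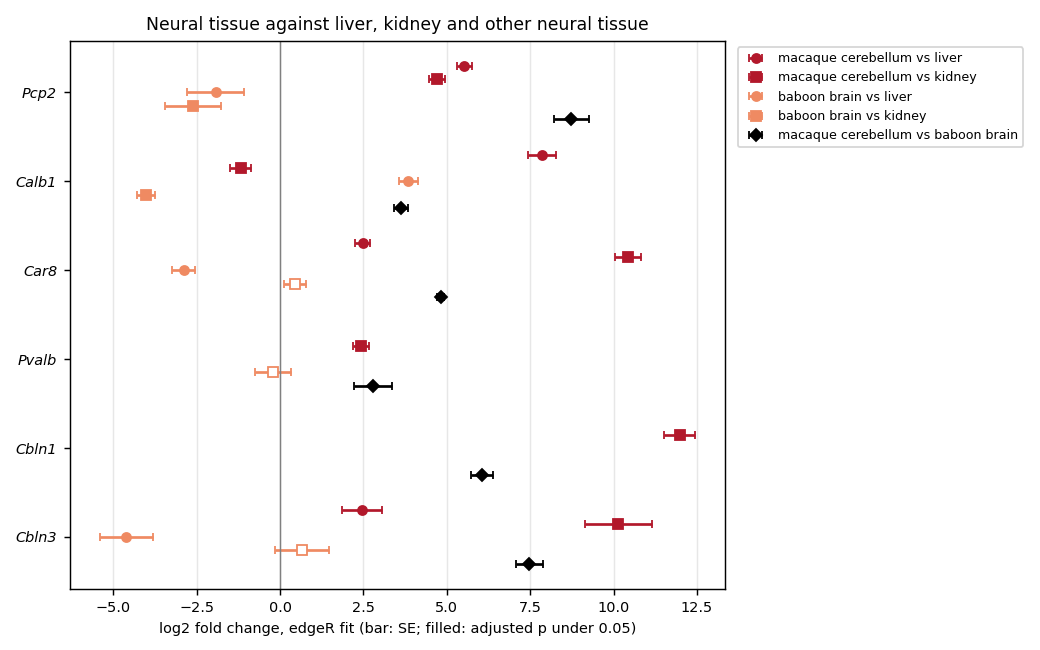
Fitted log2 fold changes (x axis, bars are standard errors) of the 6 genes for macaque cerebellum against macaque liver and kidney, baboon brain against baboon liver and kidney, and macaque cerebellum against baboon brain; filled symbols passed an adjusted p of 0.05, and fits against a group with at most 4 counts are left out. The cerebellum symbols are right of 0 except Calb1 against kidney at -1.18, while in baboon brain both Pcp2 symbols lie left of 0 and Calb1, Car8 and Cbln3 have a symbol on each side.

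A contrast within each species takes out what acts alike on all organs of a species. The log2 difference of macaque cerebellum from the mean of macaque kidney and liver was therefore set against that of baboon brain from baboon kidney and liver, in 1 fit of 35 libraries. It was larger in the macaque for 4 of the 6 genes, beside 20.7% of the 14466 genes tested, with 24.2% smaller and 44.9% called in either direction. Cbln3 differed by 8.27 (SE 1.03, edgeR adjusted p = 7.02e-08), Car8 by 7.69 (SE 0.44, edgeR adjusted p = 2.08e-15), Pcp2 by 7.40 (SE 0.67, edgeR adjusted p = 1.40e-10) and Calb1 by 3.43 (SE 0.38, edgeR adjusted p = 7.07e-09). The size depended on the baseline organ for Car8, at 5.38 over liver alone and 9.99 over kidney alone, and for Cbln3, at 7.07 over liver alone and 9.48 over kidney alone. Without baboon brain 1, which holds 36 of the 48 Pcp2 counts of that group, the Pcp2 difference was 9.08.

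Pvalb, at 2.70 (SE 2.09), did not pass the test (edgeR adjusted p = 0.306), and Cbln1, which had no count in baboon liver, gave no usable fit in edgeR. With kidney alone as the baseline both passed, at 2.65 for Pvalb (edgeR adjusted p = 0.00117) and 4.95 for Cbln1 (edgeR adjusted p = 0.0404). That Cbln1 baseline rests on 8 counts in all macaque kidneys and 4 in all baboon kidneys, so its size is uncertain. Both also passed with DESeq2 over both organs, at 2.68 for Pvalb (DESeq2 adjusted p = 0.00494) and 4.47 for Cbln1 (DESeq2 adjusted p = 9.13e-07).

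In the kidney, calbindin carries calcium through the cells of the distal tubule. Calb1 was high in the kidneys of all 3 species sampled and reached at least 5 CPM in 12 of 12 kidney libraries and in none of the 21 livers. Macaque kidneys averaged 1158 ± 345 CPM (SD, n = 5) against 0.948 ± 0.734 CPM in macaque livers (n = 6), a fitted log2 change of 9.02 (SE 0.44, edgeR adjusted p = 7.58e-12). Baboon kidneys averaged 741 ± 173 CPM against 1.18 ± 0.507 CPM in baboon livers (SD, n = 6 each), a fitted log2 change of 7.88 (SE 0.34, edgeR adjusted p = 8.90e-13). The bear, with 1 library each, had 159 CPM of Calb1 in its kidney against no count in its liver, which makes the kidney at least 288-fold higher.

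The 2 primate kidneys overlapped in Calb1. Macaque kidney was called higher than baboon kidney by a fitted log2 change of 0.72 (SE 0.21, edgeR adjusted p = 0.0227), and this call was lost without macaque kidney 1 (0.57, edgeR adjusted p = 0.0613) or macaque kidney 3 (0.62, edgeR adjusted p = 0.0585). The kidney-to-liver difference of Calb1 was larger in the macaque by 1.16 on the log2 scale (SE 0.47), which did not pass the test (edgeR adjusted p = 0.106). Without macaque liver 4, the liver with the highest Calb1, it did (1.61, edgeR adjusted p = 0.0131).

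Pvalb, which marks the early distal tubule in mouse kidney, overlapped between the kidneys of both primates. It averaged 59.7 ± 23.6 CPM in macaque (SD, n = 5) and 59.9 ± 28.0 CPM in baboon (SD, n = 6), and the difference, 0.08 on the log2 scale (SE 0.33), did not pass the test (edgeR adjusted p = 0.876). Against liver it was called higher in both species, with ratios on TMM-scaled CPM of 1851 in the macaque (counting interval 332 to 73126, edgeR adjusted p = 2.50e-12) and 1767 in the baboon (counting interval 317 to 69789, edgeR adjusted p = 1.42e-07). The 1 bear kidney had no Pvalb count, which allows up to 0.413 CPM.

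Car8 ran the other way in the periphery. It had counts in 21 of 21 livers and reached 5 CPM in 20 of them, the exception being the tube-nosed bat liver at 2.78 CPM. Macaque livers averaged 18.3 ± 8.10 CPM and baboon livers 25.8 ± 9.82 CPM (SD, n = 6 each), and the fitted log2 change of -0.62 (SE 0.35) did not pass the test (edgeR adjusted p = 0.213). The beaver livers had 58.0 and 101 CPM, the sugar glider livers 30.1 and 33.3 CPM, the chipmunk livers 17.7 and 30.0 CPM, the white-footed mouse liver 37.4 CPM and the bear liver 23.9 CPM.

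Car8 was lower in kidney than in liver in both primates, by different amounts. The log2 fold change was -7.96 in the macaque (SE 0.38, edgeR adjusted p = 5.89e-12) and -3.34 in the baboon (SE 0.35, edgeR adjusted p = 1.29e-07). The difference between these, -4.61 (SE 0.58), passed the test itself (edgeR adjusted p = 1.25e-06), beside 6.18% of all genes called lower, 6.18% called higher and 12.4% called in either direction. Between the kidneys, macaque libraries at 0.112 to 0.215 CPM lay below all baboon libraries at 3.10 to 12.03 CPM, with a fitted log2 change of -5.24 (SE 0.47, edgeR adjusted p = 8.50e-06). In the 1 bear kidney Car8 stood at 8.12 CPM, against 23.9 CPM in the 1 bear liver.

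Cbln3 was also counted in livers. It reached 5 CPM in 11 of the 14 livers of macaque, baboon and beaver and in 0 of the 7 livers of the other 5 species. The former came from the primate research center and the latter from the earlier collection. Species and collection therefore cannot be told apart here. Its spread was wide in both primates, from 1.07 to 39.0 CPM in macaque livers and from 0.955 to 44.6 CPM in baboon livers, the baboon range spanning 46.7-fold. Its coefficients of variation, 88.6% and 110%, stood at the 98.8th percentile of 8513 genes in macaque liver and the 99.2nd percentile of 8375 genes in baboon liver. Cbln3 was lower in kidney than in liver in the macaque (log2 fold change -7.69, SE 0.95, edgeR adjusted p = 1.51e-06) and in the baboon (-5.26, SE 0.83, edgeR adjusted p = 1.92e-05; -4.43 without baboon liver 3), and in macaque kidney than in baboon kidney (-2.06, SE 0.51, edgeR adjusted p = 0.00918). The part of overlapping genes in these liver counts was not tested.

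**Figure D4:**
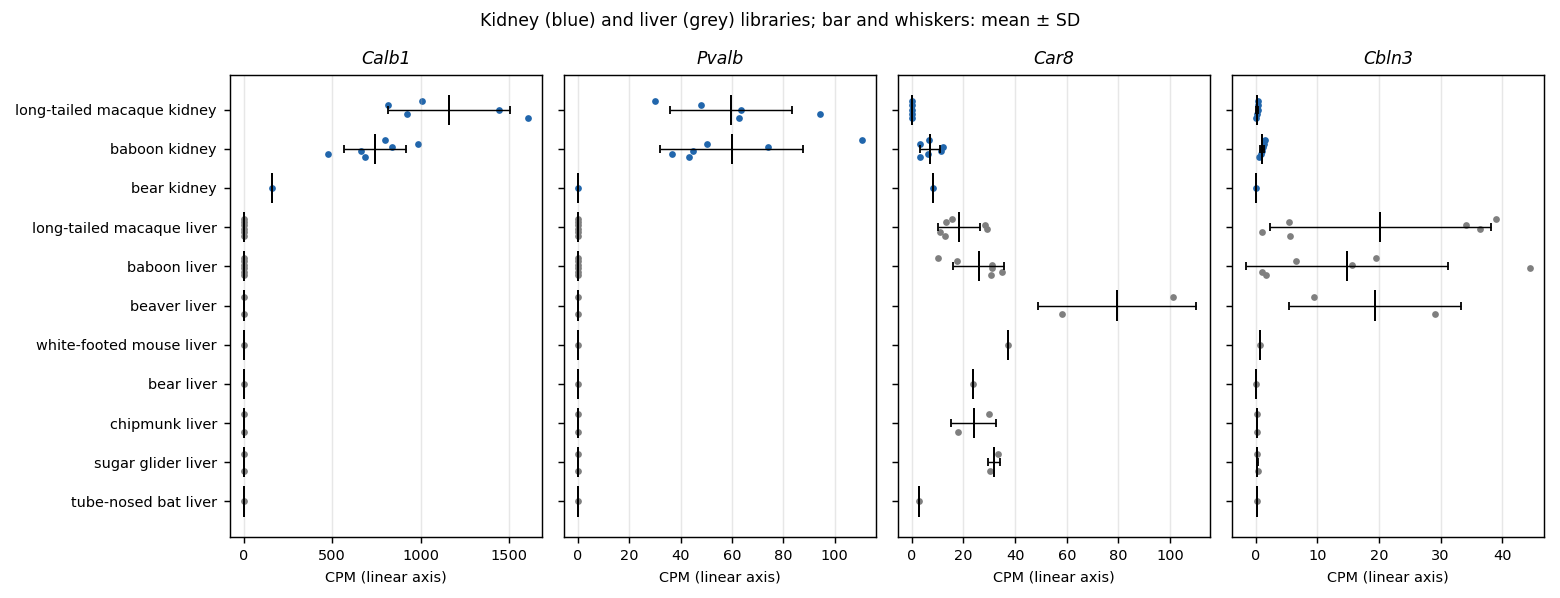
CPM (linear axes that differ between panels) of Calb1, Pvalb, Car8 and Cbln3 in each kidney (blue) and liver (grey) library by species, with group means and SD as bars and whiskers. Calb1 and Pvalb points lie away from 0 in primate kidneys (Calb1 also in the bear at 159 CPM), Car8 points in livers of all 8 species, and Cbln3 points in livers of macaque, baboon and beaver, at up to 44.6 CPM.

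Pcp2 was low outside the cerebellum and higher in kidney than in liver in the macaque (log2 fold change 0.81, SE 0.22, edgeR adjusted p = 0.00343). In the baboon the log2 fold change was 0.68 (SE 0.78), which did not pass the test (edgeR adjusted p = 0.457). Macaque kidney, overlapping with baboon kidney, was called higher in Pcp2, at 7.62 ± 2.40 CPM (SD, n = 5) against 3.15 ± 1.93 CPM in baboon (SD, n = 6), a fitted log2 change of 1.34 (SE 0.44, edgeR adjusted p = 0.0353). Macaque livers, at 1.31 to 2.93 CPM, lay above baboon livers, at 0.249 to 1.29 CPM (log2 fold change 1.19, SE 0.41, edgeR adjusted p = 0.0469). With TMM scaling the livers overlapped, macaque liver 2 at 2.04 lying below baboon liver 1 at 2.28. The kidney call was lost without any of 6 of the 11 libraries (adjusted p up to 0.0820) and the liver call without any of 9 of the 12 (adjusted p up to 0.109).

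Of the members, 3 were called higher and 2 lower in macaque kidney than in liver, beside 32.7% and 30.4% of all genes (63.1% in either direction). In baboon kidney 2 were called higher and 2 lower than in liver, beside 35.3% and 31.2% of all genes (66.5% in either direction). Cbln1 passed in neither, with at most 8 counts in all in any of these kidney or liver groups. Between macaque and baboon kidneys 2 of 5 tested members were called higher and 2 lower, beside 15.6% and 15.3% of all genes (30.9% in either direction). Between the livers 1 of 4 was called higher, beside 12.5% of all genes called higher, 12.3% called lower and 24.8% in either direction.

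In the beaver, brain and liver had 2 libraries each. Calb1 had 98.7 and 103 CPM in beaver brains against 0.0926 and 0.610 CPM in beaver livers (log2 fold change 6.75, SE 0.58, edgeR adjusted p = 0.000571). Pvalb had 34.4 and 20.9 CPM in beaver brains and 0.0926 and 0 CPM in beaver livers (ratio on TMM-scaled CPM 252, counting interval 45.2 to 9946, edgeR adjusted p = 0.000921). Both calcium buffers were thus called higher in brain.

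Car8 and Cbln3 were called lower in beaver brain than in beaver liver. Car8 had 27.7 and 44.6 CPM in brains and 58.0 and 101 CPM in livers (log2 fold change -2.52, SE 0.39, edgeR adjusted p = 0.00417), and Cbln3 had 0.127 and 0.393 CPM in brains and 29.2 and 9.45 CPM in livers (log2 fold change -7.53, SE 0.86, edgeR adjusted p = 0.00151). Cbln1, at 0.765 and 11.4 CPM in brains with no count in livers, did not pass (edgeR adjusted p = 0.0528), but passed without beaver brain 1 (edgeR adjusted p = 0.0223) and with DESeq2 (adjusted p = 0.000195). Pcp2, with 8 counts in both brains, was too low to be tested. Leaving out 1 library at a time gave log2 fold changes of 5.96 to 8.68 for Calb1, lowest without liver 1 and highest without liver 2. For Cbln3 they ran from -8.47 without brain 2 to -6.54 without liver 1. With 2 members called higher and 2 lower of the 5 tested, the shares over all genes were 35.2% higher, 29.3% lower and 64.4% in either direction.

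Beaver brain exceeded baboon brain in 2 of 6 genes, beside 25.7% of all genes called higher, 27.3% called lower and 53% in either direction. The log2 fold change was 1.80 for Car8 (SE 0.19, edgeR adjusted p = 5.85e-05) and 1.02 for Calb1 (SE 0.30, edgeR adjusted p = 0.0168), and the Calb1 call was lost without beaver brain 1 or 2 (adjusted p = 0.0751 and 0.0854). Cbln3, with a log2 fold change of -2.75 (SE 1.11), did not pass (edgeR adjusted p = 0.0604), but was called lower in beaver brain without baboon brain 3 (edgeR adjusted p = 0.0282) or 5 (edgeR adjusted p = 0.0467) and with DESeq2 (-2.78, adjusted p = 0.0188). Without beaver brain 2 its change was -3.71. The 1 white-footed mouse brain had 309 CPM of Pvalb, 19.9 of Calb1, 11.1 of Cbln1, 7.27 of Car8, 5.06 of Pcp2 and 0.632 of Cbln3. Its Pvalb level was above all 6 baboon and both beaver brains, on CPM and on TMM-scaled CPM. Its Calb1 level was below all of them on CPM, but with TMM scaling it stood at 34.1, above 4 of the 6 baboon brains. Against the 1 liver of that species, Pvalb was at least 360.0-fold and Cbln1 at least 12.9-fold higher, and Calb1 stood 23.2-fold higher (counting interval 7.93 to 112), while Car8 was lower, at 7.27 CPM in brain and 37.4 CPM in liver. These groups have no replicates and were not tested.

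In the order of group means, neighbouring groups often overlapped, and the gaps depended on the scaling. For Pcp2, macaque cerebellum stood 30.4-fold above macaque kidney, the next group on CPM, with no overlap. With TMM scaling the next group was the white-footed mouse brain, 17.02-fold below. For Cbln1, cerebellum stood 39.1-fold above the white-footed mouse brain on CPM and 14.5-fold with TMM scaling, and for Cbln3 15.4-fold above macaque liver on CPM and 6.26-fold with TMM scaling, with no overlap on either. For Car8 it stood 3.56-fold above beaver liver on CPM with no overlap. With TMM scaling the means were 179 in cerebellum and 122 in beaver liver, and the libraries overlapped, cerebellum 2 at 152 lying below beaver liver 2 at 156. For Pvalb the next group was the white-footed mouse brain, 1.21-fold below on CPM, under all 6 cerebella, and above them all with TMM scaling. For Calb1 macaque kidney, baboon kidney and macaque cerebellum followed each other with overlap between macaque and baboon kidney and between baboon kidney and macaque cerebellum.

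No member was the gene most like another member across the 15 groups. Over log2(CPM + 1) of the group means, the gene most like Pcp2 among 14159 ranked was ENSMUSG00000002664 (Pearson r = 0.969 over 15 groups) and the gene most like Cbln1 was ENSMUSG00000020428 (r = 0.984). The closest pair by rank was Car8 and Cbln3, where Cbln3 was at rank 5 for Car8 (r = 0.646), and the member most like Pcp2 was Cbln1, at rank 45 (r = 0.796). For the others the highest correlation with any gene was 0.976 for Calb1, 0.981 for Pvalb, 0.859 for Cbln3 and 0.678 for Car8. Some of these groups share a species, so the correlations describe this set of groups only.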

How the data were processed

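The values are the raw read counts per gene that the authors deposited, in 48 columns and without normalization. The submitters' processing notes name STAR and featureCounts. Not given in the sources used here are versions, genome builds, annotation, the use of strand and how reads of 8 species received mouse gene IDs. All columns matched a sample by name, with 0 columns left over. Low counts, from 1 to 20, were even in 94.3% to 99.4% of cases per library, so 2 deposited counts were taken as 1 read pair for floors and intervals, which cover counting error only.

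The deposited counts were analysed in edgeR 4.0.16 in R 4.3.3 (TMM factors, default filterByExpr, quasi-likelihood F test, two-sided), fitted on all genes of the macaque, of the baboon, of both primates together, of the beaver, or of the compared groups. The fit for beaver brain against baboon brain also held the white-footed mouse brain, which entered its filter and its scaling. P-values were adjusted by Benjamini-Hochberg over all genes tested, with calls made under 0.05. The standard error comes from the F statistic. Counting intervals are exact 95% Poisson intervals of read pairs. For a ratio they cover only the group with fewer counts and leave out the counting error of the other. The edgeR fits were tested on simulated data, where the beaver fit was exempt from the check that changed genes were recovered. Alternatives were DESeq2 1.42.0, other size factors, no filter, a replicate block and each library left out.

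The named genes are the members and, for each, the genes most like it over the group means, of which 2 IDs are printed. The members and lists were chosen with earlier results of these data known. Member names come from the choice of genes; 11 further lists of cerebellar, forebrain, kidney and liver symbols could not be read, since the files and the baboon RefSeq table pair none of the row IDs with names. Replicate numbers paired macaque cerebellum with kidney (correlation of deviations 0.127 to 0.167 over 5 pairs) and kidney with liver (0.214 to 0.306), by the criterion of every pair above 0.1. No other pair of primate organs met it. Even so, 6 of 6 macaque cerebella correlated best with the liver of their own number (0.058 to 0.109). The same held for 6 of 6 baboon kidneys and livers (0.098 to 0.348). Of the baboon brains, 5 of 6 did so with kidney and 5 of 6 with liver. The main tests used no replicate block and so left this pairing out. No within-group pair of libraries among 89 was identical, and their chi-square per degree of freedom was at least 8.23.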

Additional observations from a re-analysis of the deposited data

Results flagged for a closer look

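In 2 of the 25 sets of libraries examined for a gene in a group, 1 library stood far from the rest, and chance gives about 1 in 20. Car8 in macaque cerebellum had 238 CPM in replicate 2, below the next library at 284 CPM. Pcp2 in macaque liver had 2.93 CPM in replicate 3, above the next library at 1.92 CPM. Without that library the call of Pcp2 in macaque against baboon liver was lost (log2 fold change 0.99, edgeR adjusted p = 0.109).

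For 4 genes the log2 difference of macaque cerebellum from the macaque's other organs and that of baboon brain from the baboon's other organs differed by the test of that difference: Cbln3 (8.27, edgeR adjusted p = 7.02e-08), Car8 (7.69, edgeR adjusted p = 2.08e-15), Pcp2 (7.40, edgeR adjusted p = 1.40e-10) and Calb1 (3.43, edgeR adjusted p = 7.07e-09). Over liver alone and over kidney alone the Car8 difference was 5.38 and 9.99 and the Cbln3 difference 7.07 and 9.48, and without baboon brain 1 the Pcp2 difference was 9.08. The kidney-to-liver difference of Car8 also differed between macaque and baboon (-4.61, edgeR adjusted p = 1.25e-06). Species and brain region cannot be told apart in the comparisons with cerebellum.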

How the results depend on the processing

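Of 52 called member results, 47 kept their direction and their side of the threshold under every alternative in which they were tested, 5 lost the call under at least 1, and 0 reversed. Cbln3 in macaque against baboon kidney fell under the filter, and so was not tested, without any of 5 of the baboon kidneys, and DESeq2 gave no adjusted p for Pcp2 in macaque cerebellum against baboon brain.

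With the replicate block, 2 members were called in the kidney-to-liver difference between macaque and baboon (Calb1 added, 1.39, adjusted p = 0.0428) and 2 in macaque against baboon kidney, where Pcp2 (adjusted p = 0.0778) and Calb1 (adjusted p = 0.0725) lost the call; the numbers do not pair animals of different species. Cbln1 in beaver brain against liver passed with the block (adjusted p = 0.0130), which changed no other call. In macaque against baboon liver 0 members were called with upper-quartile factors and 0 without the filter (Pcp2 adjusted p = 0.0508 and 0.0552). Leaving out 1 library gave 1 to 2 members in the kidney-to-liver difference, 1 to 3 in beaver against baboon brain, 2 to 4 in macaque against baboon kidney and 0 to 1 in macaque against baboon liver; the cause was not tested. With 1 beaver library left out, the genes called in beaver brain against liver fell to as few as 5519, against 8576 with all 4. The median over all genes shifted by over 0.1 with upper-quartile factors in kidney against liver, to 0.14 in the macaque (0.02 with TMM) and 0.18 in the baboon (0.06 with TMM). Single libraries per organ limit what can be said of bear and white-footed mouse, and low counts limit what can be said of peripheral Cbln1. Cbln1 had at most 8 counts in any primate kidney or liver group and 14 in the sugar glider livers.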
